A study of Mus musculus with 2 samples.

Results

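Rab GTPases, the small GTP-binding proteins that mark the membranes of the secretory and endocytic pathways, are the subject here, measured as RNA in the aged mouse cerebral cortex. They were taken as the protein-coding genes of GENCODE M21 whose symbol is Rab, a number and at most 1 letter from a to d, which gave 59 of 22015 nuclear protein-coding genes and of 55536 annotated genes in the gene tables. The samples were 2 libraries of total RNA, made from left cerebral cortex; the mice were B6CASTF1/J males of 18 to 20 months, an F1 hybrid with a CAST parent. Both belonged to 1 group with no second condition, so no p-value was computed, 300 ng of RNA entered each library and ERCC spike-ins were added. Reads were assigned to the mm10 reference, and the effect of the CAST alleles on the counts was not measured. The labels give a shared donor identifier and separate biosample identifiers, not whether the libraries came from separate animals, so the spread between replicates may be technical.

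A Rab protein cycles between a GTP-bound form, which sits on a membrane and recruits effectors, and a GDP-bound form, which escort proteins can lift into the cytosol. Exchange factors load GTP, and GTPase-activating proteins speed its hydrolysis. A conserved glutamine of the Rab is tied to hydrolysis, and lipid groups on cysteines near the end of the protein anchor it. In neurons the family is known for synaptic vesicle release (Rab3), for axonal and dendritic endosomes (Rab5, Rab7, Rab11) and for traffic through the Golgi apparatus (Rab1, Rab2, Rab6).

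Annotated genes summed to 22827996 expected counts in replicate 1 and to 29897545 in replicate 2, of which Rab genes took 100377 and 137885. Intervals given for counts cover counting error only, since the sources name no molecular identifiers, and in bulk tissue fewer cells of a type and less RNA per cell cannot be told apart. Every gene of the lists for excitatory and inhibitory neurons, astrocytes, oligodendrocytes, microglia and endothelium was detected, with summed levels of 2107 and 1926 TPM for 8 excitatory neuron genes and 796 and 823 TPM for 8 oligodendrocyte genes in replicates 1 and 2. Genes of the striatum, which lies under the cortex, differed between the libraries: 10 of 10 were lower in replicate 1, with sums of 222 TPM in replicate 1 and 438 TPM in replicate 2.

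The coding sequences show what the members share beyond their names. The principal coding sequence of each gene was the one the annotation marks. Where several were marked, the one with the highest TPM summed over both libraries was taken. In this sequence the box that holds the hydrolytic glutamine was found, and the codon at that position was read. It was a glutamine codon in 56 of 59 members, CAG in 36 and CAA in 20. The box is printed here for Rab3a and Rab11a, which carry glutamine, and for the 3 members that do not. Each run is 21 bases, 5′ to 3′ in the coding direction, from the GENCODE M21 transcripts on GRCm38, and capitals mark the codon at the glutamine position.
Rab3a: tgggacacagcagggCAAgag
Rab11a: tgggacacagcagggCAGgag
Rab24: tgggacacagcaggtTCCgag
Rab25: tgggacacggccggcCTGgag
Rab20: tgggacaccgcagggCGGgag
Rab24 has a serine codon there, Rab25 a leucine codon and Rab20 an arginine codon. These 3 genes stood at very different levels: Rab24, linked to autophagy, had 38.9 TPM in replicate 1 and 37.7 TPM in replicate 2, whereas Rab20 and Rab25 were near or at 0.

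The end of the coding sequence was the second shared feature. All 59 members had at least 1 cysteine codon among the last 4 codons of the principal sequence, in 5 arrangements. In 20 members, among them all 4 Rab3 genes, both Rab6 genes and Rab7, the cysteine codons were the second and the fourth of the last 4. In 15 members, among them Rab1a, Rab2a and Rab10, they were the third and the fourth. The last 30 coding bases before the stop codon are shown for the most abundant member of 4 of the arrangements, with cysteine codons in capitals.
Rab3a: caggcgccacctcatcaggatTGTgccTGC
Rab2a: ggcggacagcaggcagggggaggcTGCTGT
Rab11b: cccaacaagctgcagTGCTGCcagagcctg
Rab34: gccagcaagaaaaaggccacaTGTTGTccc
In 15 members, represented by Rab11b, only the first of the last 4 codons was cysteine. In 6, among them the Rab5 genes, the first and the second were, and in 3, represented by Rab34, the second and the third. Rab44 is the long member, with 2175 coding bases against 582 to 843 in the others.

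Most Rab genes were expressed. Taking 1 TPM in each library as the threshold for detection, 49 of 59 members (83.1%) passed, against 58.5% of all nuclear protein-coding genes. The median member stood at 18.5 TPM in replicate 1 and 17.2 TPM in replicate 2, and the median nuclear protein-coding gene at 3.88 and 3.54 TPM. By mean level, 9 members were at 100 TPM or more, 30 between 10 and 100, 11 between 1 and 10, and 9 under 1. Of the 2201 genes in the top 10% of nuclear protein-coding genes, 18 were Rab genes. Summed over the family, Rab transcripts held 0.586% of nuclear protein-coding TPM in replicate 1 and 0.611% in replicate 2 (mean 0.599 ± 0.018%, SD, n = 2). The 5 most abundant members held 40.6% of Rab TPM in replicate 1 and 41.3% in replicate 2.

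**Figure D1:**
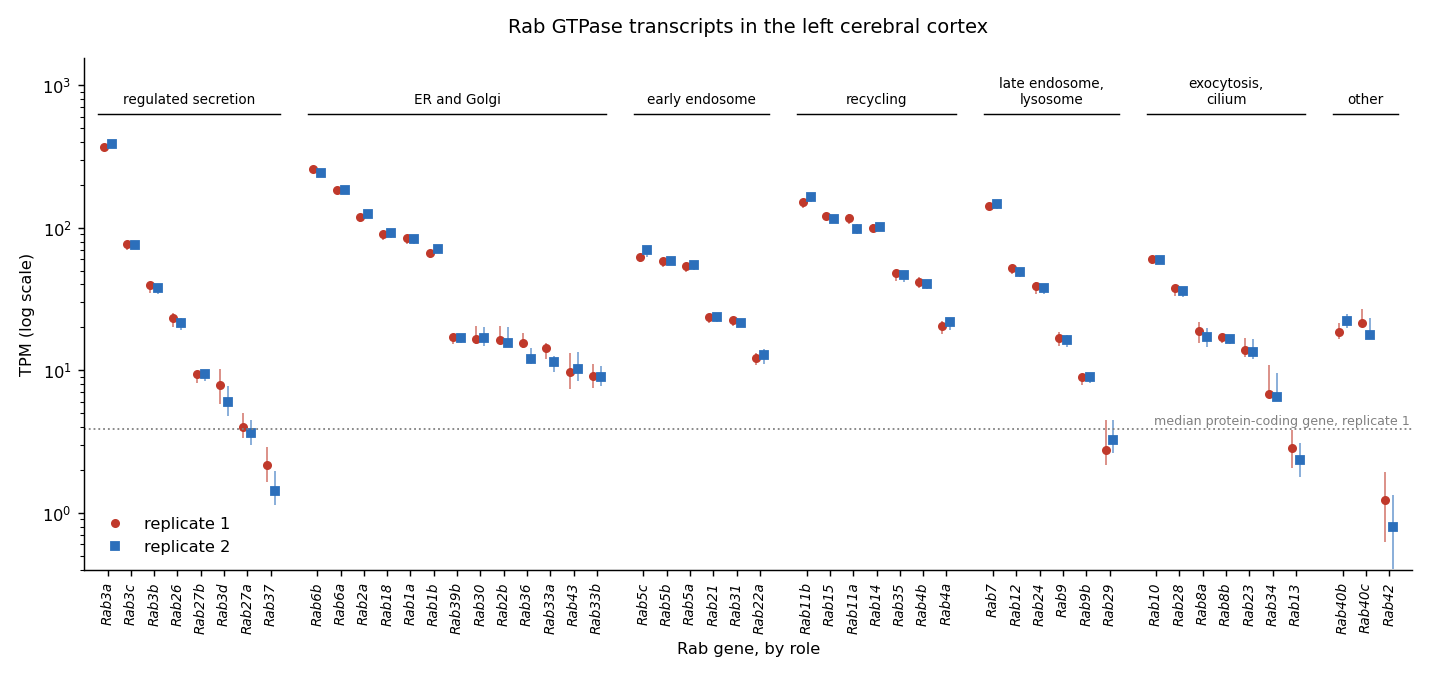
TPM (log scale) of the 50 Rab genes with a mean of 1 TPM or more, by role, in replicate 1 (red circles) and replicate 2 (blue squares); thin lines are the deposited intervals of the posterior mean, which need not be centred on the TPM. Rab3a, Rab6b, Rab6a, Rab11b and Rab7 lie highest, and the 2 libraries lie close together for most members.

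Among Rab genes of regulated secretion, 8 of 8 were detected and together they held 19.5% of Rab TPM in replicate 1 and 19.9% in replicate 2. Rab3a (ENSMUSG00000031840.12, chr8:70754679-70758677 on mm10, plus strand), which acts on synaptic vesicles before fusion, had 371 TPM in replicate 1 and 384 TPM in replicate 2. It was the most abundant member in both libraries and stood 90th among nuclear protein-coding genes. Rab3c, another Rab3 of synaptic vesicles, had 76.4 and 76.0 TPM, and Rab3b, which also serves endocrine granules, 39.3 and 37.8 TPM in replicates 1 and 2. Rab3d, best known from exocrine granules, had 7.84 and 6.01 TPM. Rab3a alone thus exceeded the other Rab3 genes combined in both libraries.

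The remaining secretory members were lower than Rab3a, Rab3b and Rab3c. Rab26, linked to synaptic vesicles and autophagy, had 23.25 TPM in replicate 1 and 21.5 TPM in replicate 2. Rab27b, which docks secretory granules, had 9.35 and 9.39 TPM, and its paralogue Rab27a, known from melanosomes and lytic granules, 4.02 and 3.63 TPM. Rab37, a granule Rab, had 2.15 and 1.42 TPM, the lowest of this group, on 64 and 66 counts.

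The 15 Rab genes of the endoplasmic reticulum and Golgi held the largest part of the family's TPM of the 7 role groups, 33.1% in replicate 1 and 32.8% in replicate 2, and 13 of them were detected. Rab6b (ENSMUSG00000032549.7, chr9:103111787-103185276), a Golgi Rab enriched in brain, had 258 TPM in replicate 1 and 243 TPM in replicate 2. Rab6a (ENSMUSG00000030704.14, chr7:100607410-100641268), its ubiquitous paralogue in retrograde Golgi traffic, had 184 and 183 TPM. Rab2a, which acts between endoplasmic reticulum and Golgi, had 118 and 125 TPM. These 3 genes made up most of the group's summed level of 902 TPM in replicate 1 and 891 TPM in replicate 2.

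Rab18, found on lipid droplets and the endoplasmic reticulum, had 90.7 TPM in replicate 1 and 92.3 TPM in replicate 2. Rab1a and Rab1b, which drive transport from endoplasmic reticulum to Golgi, had 84.2 and 82.85 TPM, and 66.7 and 71.2 TPM. A second set of Golgi members stood near or below 17 TPM. In it were Rab39b, an X-linked gene mutated in human intellectual disability (17.2 and 16.96 TPM), Rab30, a Golgi Rab (16.6 and 16.95 TPM), and Rab2b (16.3 and 15.6 TPM). Rab36, a Golgi Rab, had 15.55 TPM in replicate 1 and 12.05 TPM in replicate 2. Rab33a had 14.4 and 11.45 TPM and Rab33b, a partner of the autophagy protein Atg16l1, 9.05 and 9.01 TPM. Rab43, which acts between endoplasmic reticulum and Golgi, had 9.76 and 10.2 TPM.

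Of 7 early endosome members, 6 were detected, and they held 8.51% of Rab TPM in replicate 1 and 8.87% in replicate 2. The 3 Rab5 genes, which organise fusion of early endosomes, lay within a narrow range in TPM. Rab5c had 61.85 TPM in replicate 1 and 69.7 TPM in replicate 2, Rab5b 58.0 and 58.7 TPM, and Rab5a 53.8 and 54.4 TPM. In the second quantification, a separate table of the same libraries, Rab5c stood well above the others, at 158 and 181 TPM, against 81.2 and 85.5 TPM for Rab5b and 78.7 and 83.0 TPM for Rab5a. Transcripts with a complete coding sequence made up 83.8 and 91.3 TPM of this for Rab5c. For Rab5b they made up 76.8 and 82.7 TPM, and for Rab5a 76.9 and 82.0 TPM. In the first table Rab21, which acts in integrin uptake, had 23.65 and 23.6 TPM, Rab31 22.5 and 21.6 TPM, and Rab22a 12.25 and 12.75 TPM, so all 3 were below every Rab5 gene in both libraries.

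Recycling members held 22.0% of Rab TPM in replicate 1 and 21.6% in replicate 2, with 7 of 9 detected. Rab11b (ENSMUSG00000077450.13, chr17:33742484-33760530), a recycling endosome Rab enriched in brain, had 151 TPM in replicate 1 and 164 TPM in replicate 2. Rab15, an endosomal Rab of neural tissue, had 121 and 114 TPM, and Rab11a, the ubiquitous recycling Rab, 117 and 98.6 TPM. Rab14, of endosomes and Golgi, had 100.2 and 101 TPM. Rab35, of fast recycling, had 48.2 and 46.4 TPM, Rab4b 41.5 and 40.0 TPM, and Rab4a, its paralogue on early recycling endosomes, 20.5 and 21.8 TPM. Both epithelial members Rab17 and Rab25 were not detected.

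Late endosome and lysosome members held 9.68% of Rab TPM in replicate 1 and 9.71% in replicate 2, and 6 of 9 were detected. Rab7 (ENSMUSG00000079477.9, chr6:87999106-88045270), which carries cargo from late endosomes to lysosomes and is borne along axons on signalling endosomes, had 143 TPM in replicate 1 and 147 TPM in replicate 2. It was the most abundant gene of this group in both libraries. Rab12, one of the substrates of the Parkinson's disease kinase Lrrk2, had 52.0 and 48.8 TPM, and Rab24 stood at the levels given above. Rab9, which returns receptors from late endosomes to the Golgi, had 16.9 and 16.2 TPM, and its relative Rab9b 8.93 and 9.0 TPM. Both of these genes are X-linked. Rab29, a Golgi and lysosome partner of Lrrk2, had 2.77 and 3.22 TPM.

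All 7 members of the exocytosis and cilium group were detected, with 5.76% of Rab TPM in replicate 1 and 5.60% in replicate 2. Rab10, which delivers membrane to growing axons and dendrites, had 59.9 TPM in replicate 1 and 59.7 TPM in replicate 2. Rab28, a Rab of photoreceptor cilia, had 37.7 and 36.1 TPM. Rab8a and Rab8b, which act in polarised exocytosis and ciliary traffic, had 18.9 and 17.2 TPM, and 17.1 and 16.7 TPM. Rab23, a negative regulator of Hedgehog signalling, had 13.9 and 13.4 TPM, Rab34, a gene of ciliogenesis, 6.83 and 6.52 TPM, and Rab13, a junction Rab of epithelia, 2.86 and 2.36 TPM.

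The last group held 4 members. Rab40b, whose protein carries a SOCS box, had 18.5 TPM in replicate 1 and 22.1 TPM in replicate 2, and Rab40c 21.4 and 17.7 TPM. The order of these paralogues differed between the libraries. Rab42 had 1.22 and 0.80 TPM, and Rab44 1 count, in replicate 2.

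The 10 members that did not reach 1 TPM in both libraries included 6 with 8 counts or fewer in each. Rab32 and Rab38, which act in melanosome formation, had 0.85 and 0.91 TPM, and 0.51 and 0.23 TPM in replicates 1 and 2. Rab39 had 1.01 and 0.67 TPM, and Rab7b 0.36 and 0.61 TPM. Rab20 had 0 counts in replicate 1 and 5 in replicate 2, Rab17 had 1 and 0, and Rab19 had 0 and 1. Rab25 had 0 counts in both libraries. A count of 0 allows up to 3 counts, which for Rab25 is 0.294 TPM in replicate 1 and 0.211 TPM in replicate 2, and for Rab20 0.156 TPM in replicate 1. These limits hold for the libraries with 0 counts. The deposited intervals reached higher for Rab25, up to 1.24 TPM in replicate 1 and 0.90 TPM in replicate 2. For Rab20 in replicate 1 the deposited interval ended at 0.15 TPM.

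Which transcripts carried the reads was examined next. Over the 45 members with a mean of 5 TPM or more, transcripts with a complete coding sequence held a median of 94.4% of a gene's TPM in replicate 1 and 95.8% in replicate 2. The same median over 10355 nuclear protein-coding genes was 79.6% in replicate 1 and 83.2% in replicate 2. The principal coding sequence, counted over all transcripts that carry it, held a median of 90.2% in replicate 1 and 89.5% in replicate 2, and over 90% in both libraries for 19 of the 45 members. The medians were lower in the second quantification. There they were 82.6% and 91.9% for complete coding transcripts, and 72.6% in each library for the principal coding sequence. For Rab2a, Rab10, Rab8b, Rab39b, Rab33a and Rab9b it held all of the TPM, since only 1 transcript is annotated for each.

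**Figure D2:**
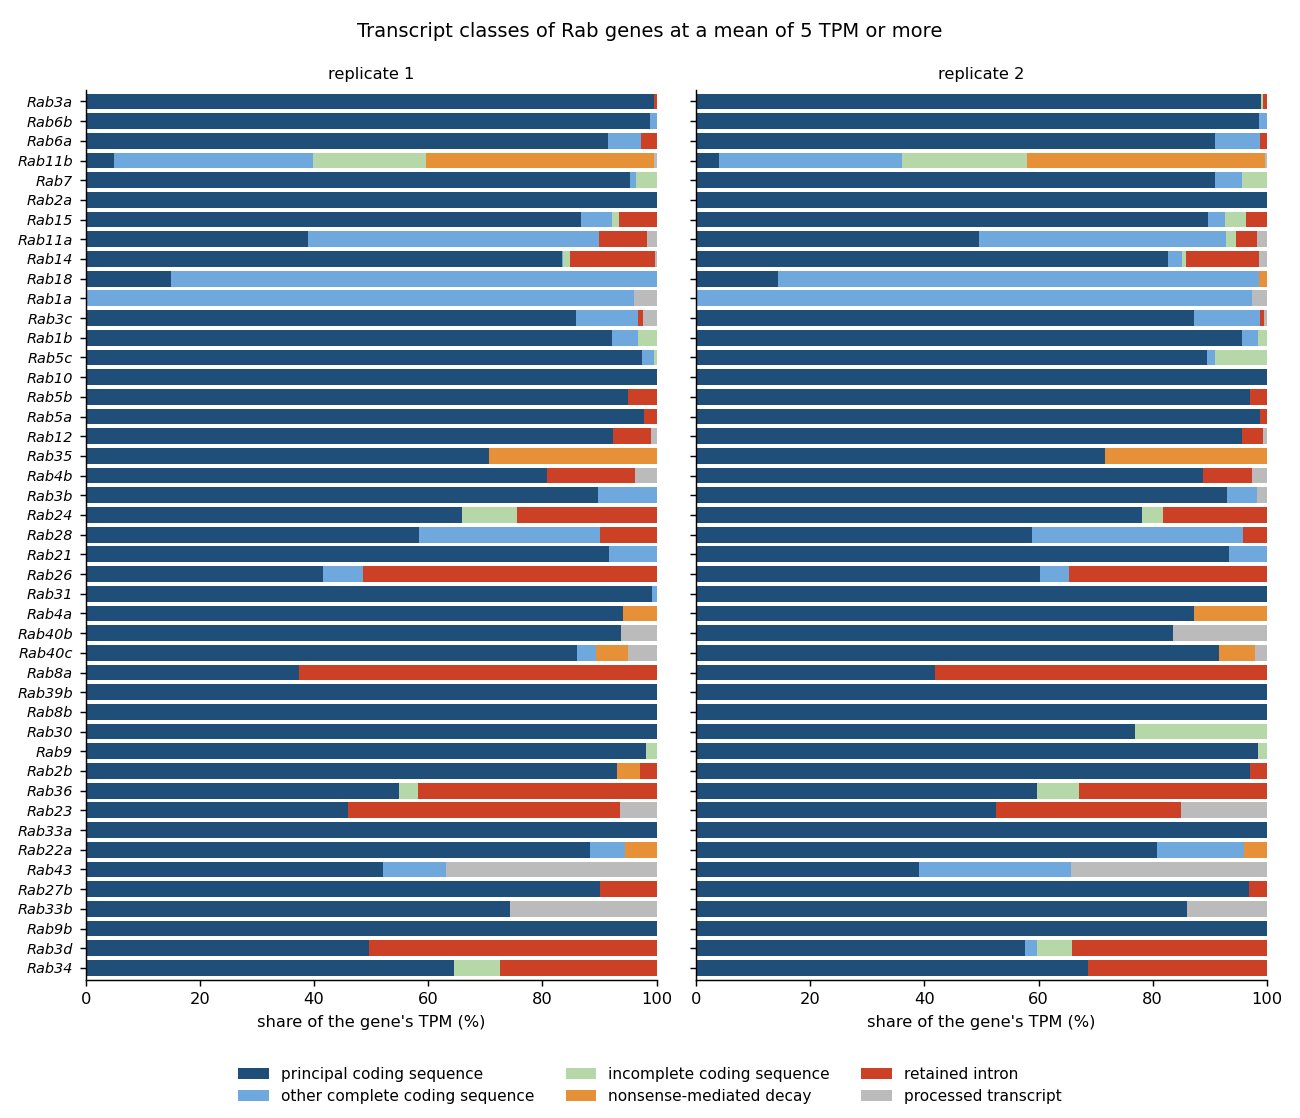
Share of each gene's TPM (%) by transcript class for the 45 Rab genes at a mean of 5 TPM or more, ordered by level, in replicate 1 (left) and replicate 2 (right). Shares are those of the first quantification. Most bars are dark blue, the principal coding sequence, with Rab11b, Rab18, Rab1a, Rab11a and Rab8a as the exceptions among members above 15 TPM in which it held under 50% in both libraries.

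In 5 members the principal coding sequence held under 50% of the gene's TPM in both libraries. For Rab1a it held 0%: Rab1a-206, the transcript marked principal, was at 0 in both quantifications, and Rab1a-201 held 74.4% of TPM in replicate 1 and 75.2% in replicate 2. Every 100-base word of Rab1a-206 is also in Rab1a-201, and their coding sequences share the last 606 bases. Rab1a-206 thus holds no word of that length by which its reads could be told from those of Rab1a-201. For Rab18, the principal Rab18-205 held 14.8% and 14.4% of TPM but 56.4% and 55.5% of the gene's expected counts, because its 6515 bases are long and TPM divides by length.

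Rab11b gave the most divided picture of the abundant members. Its principal transcript Rab11b-201, of 6109 bases, held 4.94% of TPM in replicate 1 and 4.07% in replicate 2. Rab11b-204, annotated as a target of nonsense-mediated decay, led with 39.9% and 41.8%, followed by Rab11b-203, whose 579 coding bases share the first 40 and the last 541 with the principal sequence, with 34.8% and 32.1%. By TPM of complete coding transcripts Rab11b moved to place 15 of the family, against place 4 by all transcripts. In the second quantification Rab11b-204 was at 0 and Rab11b-205, a processed transcript of 503 bases, led with 50.5% and 51.2% of TPM on 9.81% and 10.5% of the reads. A pseudogene, Rab11b-ps2, shared 7.57% of the 100-base words of Rab11b-201, so some of the gene's reads are uncertain.

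Rab8a was led by a retained-intron transcript. Rab8a-202, of 542 bases, held 62.7% of TPM in replicate 1 and 58.1% in replicate 2, on 14.3% and 12.1% of the gene's expected counts. In the second quantification the coding Rab8a-201 led with 53.7% and 59.1%. For Rab11a the leading transcript differed between libraries: Rab11a-206, of 462 bases, held 47.4% in replicate 1 and 43.4% in replicate 2, while the principal Rab11a-208 held 38.9% and 49.5%. Rab11a-208 took 77.9% and 85.2% of the expected counts, and in the second quantification Rab11a-206 fell to 0% and 9.68% of TPM. For both genes a short transcript gained TPM share from few reads.

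**Figure D3:**
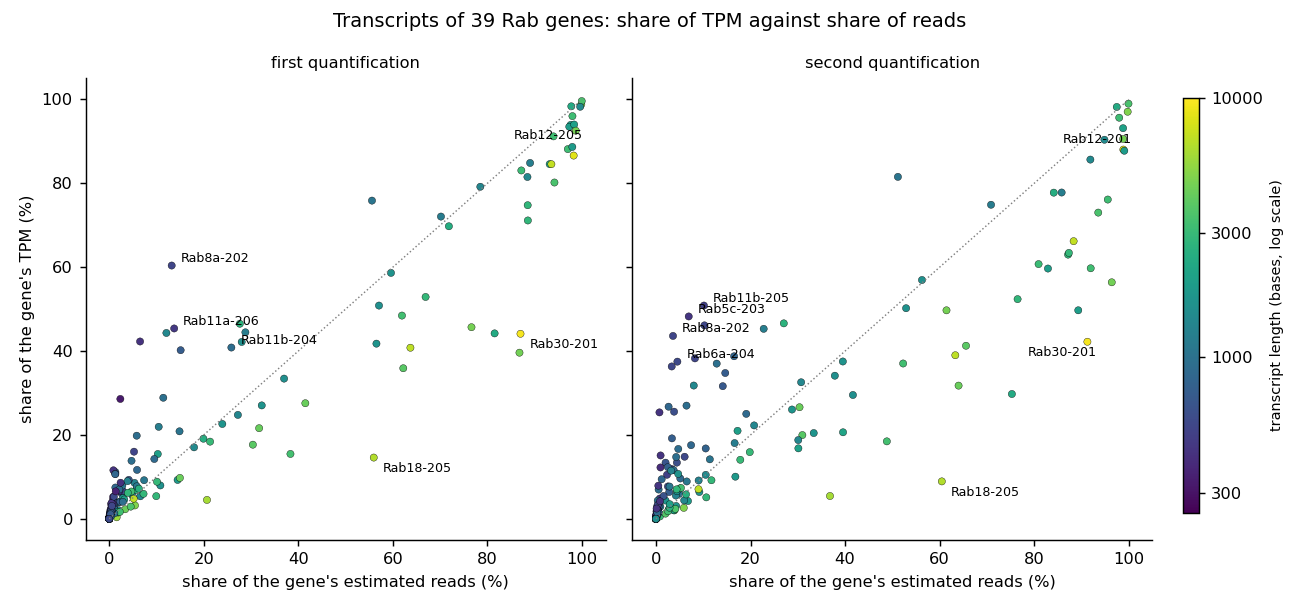
Share of a gene's TPM (%) against share of its estimated reads (%) for each transcript of the 39 Rab genes with 5 TPM or more in both libraries and at least 2 annotated transcripts, as the mean of both libraries, in the first (left) and second (right) quantification. Colour gives transcript length; short transcripts such as Rab8a-202 lie above the dotted line of equal shares and long ones such as Rab18-205 and Rab30-201 below it.

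Leading transcripts repeated between the libraries about as often as in other genes. Among 39 members with 5 TPM or more in both libraries and at least 2 annotated transcripts, 34 (87.2%) led with the same transcript in both libraries, against 89.5% of 9375 nuclear protein-coding genes. Both quantifications and both libraries named 1 transcript for 26 members (66.7%), against 67.8% of the same genes. The leading transcript was shorter than 700 bases, a length chosen after the values were seen, in both libraries for 1 member (Rab8a) in the first quantification, against 4.74% of genes, and for 3 members (Rab7, Rab11b and Rab18) in the second, against 6.34%.

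Of the 13 members whose leader varied, 4 led with transcripts of an identical coding sequence. Rab3a-201 held 80.5% of Rab3a in replicate 1 and 77.9% in replicate 2 in the first quantification, against 27.3% and 17.3% in the second, where Rab3a-203 led in replicate 1 and Rab3a-202 in replicate 2. All of these encode the same 660 coding bases, which held 99.6% and 99.1% of Rab3a TPM. Rab27b, Rab30 and Rab40c likewise traded leaders with 1 coding sequence. Rab40c-209 and Rab40c-207 differ by 50 and 100 of their 100-base words, and the first held 71.8% and 67.7% of TPM in the first quantification but 0.03% or less in the second.

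In Rab12 the quantifications chose different proteins. Rab12-205, with 729 coding bases, held 92.4% of TPM in replicate 1 and 95.6% in replicate 2 in the first quantification and 0.025% or less in the second. Rab12-201, with 873 coding bases that end in the same 729, held 0% in the first and 91.3% and 95.03% in the second. Rab12-201 contains every 100-base word of Rab12-205 and adds 59 of its own, so few words set them apart.

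Other leaders varied with short or partial transcripts. Rab7-205 held 85.4% and 83.8% of Rab7 in the first quantification, and the partial Rab7-207, of 550 bases, 47.0% and 45.3% in the second on 10.7% and 9.86% of the reads. Rab5c-202 held 97.5% of Rab5c in replicate 1 and 89.5% in replicate 2, and the partial Rab5c-203, of 441 bases, 47.0% and 49.5% in the second quantification. In Rab18 the second quantification led with Rab18-202, a processed transcript of 535 bases, at 37.2% and 39.3%. Leaders of Rab34 and Rab3d differed between libraries, with no transcript of Rab34 over 50.7% and none of Rab3d over 50.4%. A leader under 50% in both libraries was also seen in Rab23, where Rab23-201 held 24.7% and 30.4%, and in 1 library in Rab26 (41.5% in replicate 1), Rab36 (43.5% in replicate 1) and Rab43 (39.2% in replicate 2).

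Rab6a showed a clear choice between mutually exclusive coding stretches. Rab6a-201 and Rab6a-202 both have 624 coding bases and differ at 30 of them, in 24 codons and 3 encoded residues, between coding bases 184 and 279. The stretch is printed for each, with the differing bases in capitals; it contains the hydrolysis codon, from chromosome 7 of GRCm38.
Rab6a-201: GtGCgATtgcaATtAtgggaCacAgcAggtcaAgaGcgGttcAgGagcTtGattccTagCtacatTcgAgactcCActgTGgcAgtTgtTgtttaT
Rab6a-202: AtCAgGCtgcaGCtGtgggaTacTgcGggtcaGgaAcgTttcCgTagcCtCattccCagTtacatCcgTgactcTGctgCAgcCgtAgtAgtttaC
Rab6a-201 held 91.5% of Rab6a TPM in replicate 1 and 90.9% in replicate 2. Rab6a-203, with 525 coding bases, held 5.88% and 7.89%. All complete coding transcripts, Rab6a-202 among them, held 97.3% and 98.8% together, so almost none was left for Rab6a-202. In the second quantification Rab6a-201 held 58.9% and 60.6%, the difference being taken by the 567-base retained-intron transcript Rab6a-204 with 39.04% and 35.9% of TPM on 4.80% and 4.26% of the reads.

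Retained-intron transcripts took a larger share in replicate 1. In a look added after the values were seen, for the 20 members at 5 TPM or more with any retained-intron TPM, the share was higher in replicate 1 in 17 (85%), with medians of 9.92% in replicate 1 and 3.96% in replicate 2. The same direction was found in 82.4% of 6348 nuclear protein-coding genes, with medians of 13.2% in replicate 1 and 8.97% in replicate 2. The proportion higher in replicate 1 was thus close to that of other genes, while the members' medians of TPM share were lower. As shares of expected counts they were not lower, at 7.62% and 4.69% for members against 6.82% and 4.64% for nuclear protein-coding genes. In the second quantification the TPM share was higher in replicate 1 for 15 of 20 members, against 79.7% of genes. Rab26 had 51.4% in replicate 1 and 34.6% in replicate 2, Rab3d 50.4% and 34.1%, Rab23 47.6% and 32.5%, and Rab36 41.8% and 32.9%. Rab2b, Rab34 and Rab3a did not follow, with 2.88% and 2.94%, 27.4% and 31.3%, and 0.424% and 0.745%.

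Related members were then compared within each library, in 25 pairs. A pair was called when the 2 genes' deposited intervals lay apart in each library and on the same side, and log2 ratios are of TPM, with the first gene over the second. In all, 19 pairs were called, 11 with the first gene higher and 8 with the second. The principal coding sequences of these pairs were 63.1% to 79.2% identical in bases.

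Rab3a exceeded each other Rab3 gene, by 2.31 ± 0.04 over Rab3c (4.95-fold, SD, n = 2), 3.29 ± 0.08 over Rab3b (9.78-fold) and 5.78 ± 0.31 over Rab3d (54.9-fold). Over Rab3d the value was 6.65 when transcripts with a complete coding sequence were summed, and the Rab3b and Rab3c ratios to Rab3d likewise became 3.35, against 2.49, and 4.32, against 3.47. The encoded Rab3a protein is 83.6% identical to Rab3c, 78.5% to Rab3b and 76.3% to Rab3d. The Rab3b to Rab3c ratio was -0.98 ± 0.04, with Rab3b lower.

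The endosomal and lysosomal pairs covered a wide range. Rab7 exceeded Rab7b by 8.27 ± 0.51 (309-fold), on 11 counts of Rab7b in replicate 1 and 29 in replicate 2, and by 7.22 with 0.5 added to each TPM. Rab9 exceeded Rab9b by 0.88 ± 0.05 (1.85-fold). Rab4a was below Rab4b (-0.95 ± 0.10), Rab22a below Rab31 (-0.82 ± 0.08) and Rab5a below Rab5c (-0.28 ± 0.11). The call of Rab5a and Rab5c was lost, and so was that of Rab11a and Rab11b, under a rule that asked for a mean over 3 SD. Rab5a and Rab5b (-0.11 ± 0.0024) and Rab5b and Rab5c (-0.17 ± 0.11) were not called, although the first of these passed the rule of 3 SD. In the second quantification, Rab5a and Rab5b were below Rab5c by more, with ratios of -1.06 and -1.02, both past 3 SD. Over complete coding transcripts of that table these genes lay closer together. There Rab5c had 83.8 and 91.3 TPM, Rab5b 76.8 and 82.7 TPM, and Rab5a 76.9 and 82.0 TPM.

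In the secretory and Golgi pairs, Rab2a exceeded Rab2b by 2.93 ± 0.10 (7.62-fold), Rab26 exceeded Rab37 by 3.68 ± 0.34 (12.8-fold) and Rab1a exceeded Rab1b by 0.28 ± 0.08 (1.21-fold). The Rab1a and Rab1b ratio was 0.11 ± 0.07 in the second quantification, which lost the call. Rab27a was below Rab27b (-1.29 ± 0.11) and Rab39 below Rab39b (-4.37 ± 0.41, and -3.72 with 0.5 added to each TPM). Rab10 exceeded its relative Rab13 by 4.52 ± 0.19 (23.0-fold). Rab33a over Rab33b (0.51 ± 0.23), Rab32 over Rab38 (1.36 ± 0.88), Rab8a over Rab8b (0.09 ± 0.07) and Rab40b over Rab40c (0.05 ± 0.38) were not called.

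The direction of 2 called pairs depended on how transcripts were treated. Rab6a was below Rab6b in TPM (-0.45 ± 0.05) but above it in the second quantification (0.18), the table in which the retained-intron Rab6a-204 took 39.04% and 35.9% of Rab6a. Over complete coding transcripts of that table Rab6a was below Rab6b, with 252 and 268 TPM against 371 and 365 TPM. Rab11a was below Rab11b in TPM (-0.55 ± 0.26). It was above Rab11b (0.72) when only transcripts with a complete coding sequence were summed in the first quantification. The same sum in the second quantification was again lower for Rab11a in both replicates. There it was 61.3 and 88.4 TPM for Rab11a and 112 and 121 TPM for Rab11b. On the sum of the first quantification, the uncalled pair of Rab8a and Rab8b moved to -1.25, with Rab8a lower. The encoded proteins are 90.9% identical between Rab6a and Rab6b and 90.7% between Rab11a and Rab11b.

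**Figure D4:**
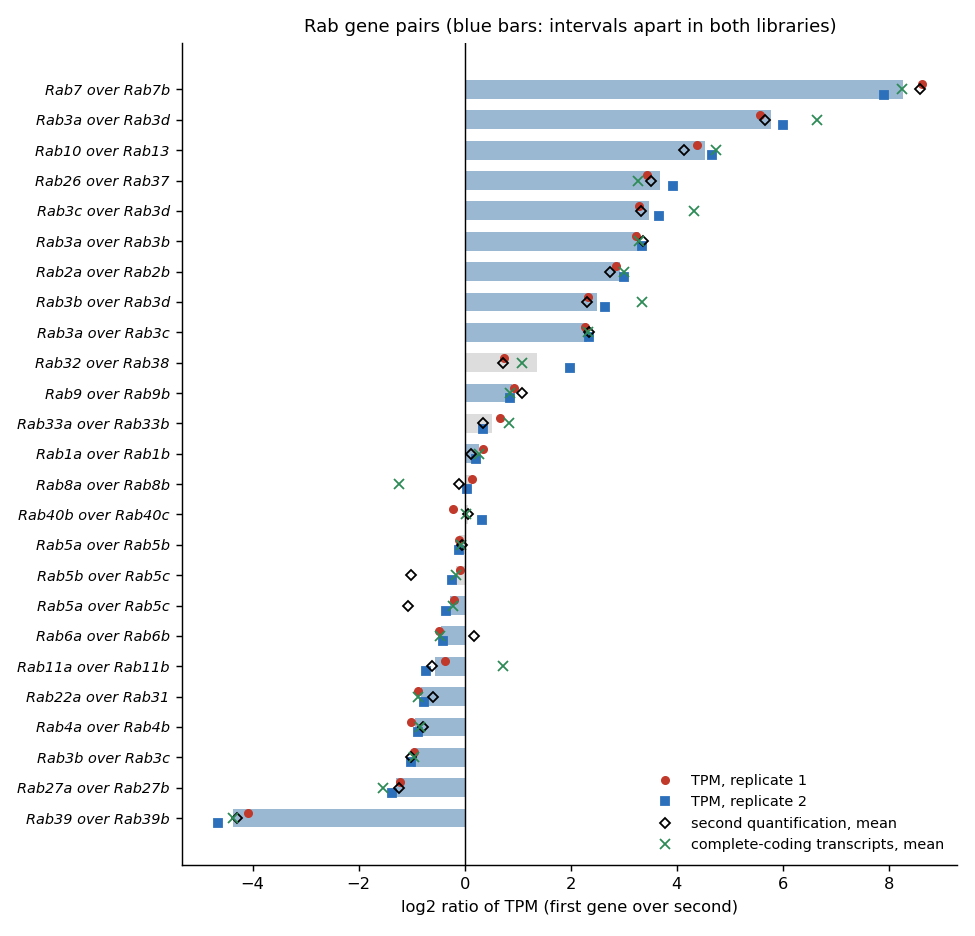
Log2 ratio of TPM for 25 Rab gene pairs, first gene over second; bars are the mean of both libraries (blue where the deposited intervals were apart in both libraries, grey where not), circles replicate 1, squares replicate 2, diamonds the second quantification and crosses the sum of complete coding transcripts. Rab7 over Rab7b is at the top with 8.27, and the diamond of Rab6a over Rab6b and the cross of Rab11a over Rab11b lie on the other side of 0 from their bars.

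Between the replicates, Rab genes differed by about as much as other nuclear protein-coding genes. Log2 ratios, replicate 1 over replicate 2 after TMM scaling, were computed for the 53 members whose mean count was at least 10. By counting interval 1 of the 53 members was higher in replicate 1, against 12.7% of 14444 nuclear protein-coding genes, and 22 of the 53 were lower, against 24.3%. With this scaling a larger part of the members was thus called lower, and a smaller part higher, than of those genes. The median ratio was -0.11 for the members and -0.05 for those genes. Past 2-fold was 1 member, Rab7b, on 11 and 29 counts (-1.02, interval -2.20 to -0.01), against 1.41% of genes. In the 46 members whose mean count was at least 100, ratios ran from -0.28 to 0.22. Their median absolute log2 ratio was 0.129, against 0.122 for nuclear protein-coding genes with such counts.

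The lower members included every one of the 17 most abundant. Counting intervals are narrow at high counts, so small ratios are called there. The direction is that of TMM-scaled counts. In deposited TPM some of these genes, among them Rab6b and Rab11a, stood higher in replicate 1, and others, among them Rab3a and Rab2a, lower. Over all annotated genes with a mean count of at least 10, the median log2 ratio was 0.12 in deposited TPM and -0.03 after TMM scaling. Rab3a had 7028 counts in replicate 1 and 10118 in replicate 2 (-0.18, interval -0.23 to -0.14). Rab2a had 3576 and 5268 counts (-0.22, interval -0.28 to -0.15), and Rab1b 1712 and 2600 (-0.26, interval -0.35 to -0.17). Rab36 alone was higher in replicate 1, with 575 and 625 counts (0.22, interval 0.06 to 0.39), and it was not called in the second quantification (0.15). The lower calls depended on scaling: spike-in scaling added 0.13 to every ratio, after which 3 members were lower and 6 higher. Region and cell type genes also differed between the libraries, and their part in the Rab difference was not tested. After TMM scaling 10 of 10 striatal genes (median ratio -1.11) and 7 of 8 oligodendrocyte genes (-0.22) were lower in replicate 1, against 24.3% of nuclear protein-coding genes. So were 4 of 6 inhibitory neuron, 3 of 6 microglia, 3 of 6 endothelial (1 higher) and 2 of 6 astrocyte genes (1 higher). Of 8 excitatory neuron genes, 2 were lower and 4 higher. With spike-in scaling 10 striatal and 4 oligodendrocyte genes were lower, against 6.73%.

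**Figure D5:**
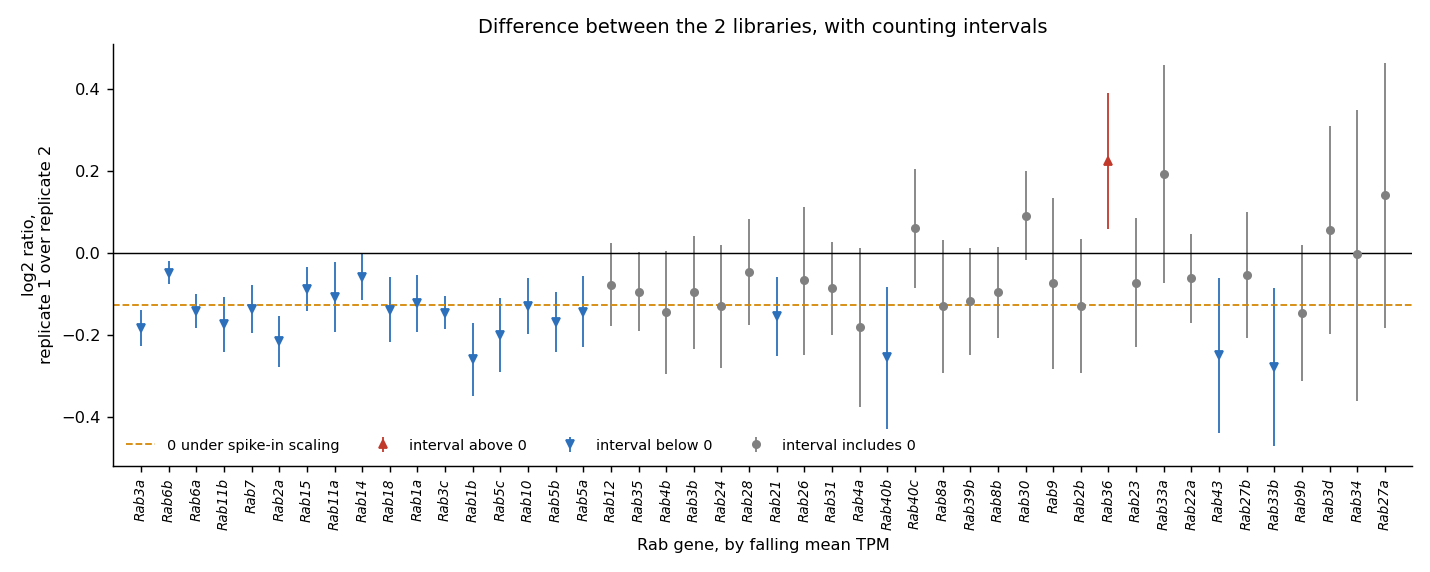
Log2 ratio of replicate 1 over replicate 2 after TMM scaling, with 95% counting intervals, for the 46 Rab genes whose mean count was at least 100, by falling level. Most points lie between 0 and -0.28, near the dashed line that marks 0 under spike-in scaling, and Rab36 is the member with an interval above 0.

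The genes that act on Rab proteins were present as well. Of 8 delivery genes, which escort and prenylate Rab proteins, 8 were detected. Rabac1, a prenylated Rab acceptor, had 135 TPM in replicate 1 and 153 TPM in replicate 2, and Gdi2, which holds Rab proteins in the cytosol, 132 and 135 TPM. Of 33 exchange factor genes 30 were detected, with Madd, the Rab3 exchange factor, at 120.0 and 98.0 TPM, Dennd5a at 105 and 97.6 TPM, and Sbf1 at 99.5 and 94.5 TPM. Of 36 genes for GTPase-activating proteins 35 were detected, led by Rabgap1l (93.3 and 95.03 TPM), Sgsm1 (83.6 and 67.9 TPM) and Tbc1d9b (57.3 and 56.3 TPM). In each of these lists most members were detected, against 58.5% of nuclear protein-coding genes.

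Of 43 effector genes, 36 were detected. Rims1, an active zone scaffold that binds Rab3, had 171 TPM in replicate 1 and 145 TPM in replicate 2, Rph3a, the vesicle protein rabphilin, 139 and 133 TPM, and Osbpl1a, a Rab7 partner, 141 and 130 TPM. Genes around the kinase Lrrk2, which phosphorylates Rab proteins, were 4 of 4 detected: Vps35, a retromer subunit, had 51.7 and 57.4 TPM, Ppm1h, a phosphatase of Rab proteins, 44.6 and 37.6 TPM, and Lrrk2 29.7 and 26.3 TPM. By counting interval, 6 of 8 delivery genes were lower and 0 higher in replicate 1, exchange factors 5 lower and 8 higher of 33, activating proteins 11 lower and 2 higher of 36, and effectors 9 lower and 9 higher of 42, against 24.3% lower and 12.7% higher of nuclear protein-coding genes. With spike-in scaling these became 1 lower and 0 higher for delivery, 0 and 16 for exchange factors, 2 and 11 for activating proteins and 1 and 20 for effectors, against 6.73% lower and 29.4% higher of nuclear protein-coding genes. After TMM scaling none of the regulators in these 5 lists passed 2-fold.

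The Rab medians of 18.5 TPM in replicate 1 and 17.2 TPM in replicate 2 were set beside those of the Arf and Arl genes, another family of small GTPases in membrane traffic. Detection was reached by 21 of 26 Arf and Arl genes, and their median levels were 20.9 TPM in replicate 1 and 19.9 TPM in replicate 2.

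Levels of single members were also read in the second quantification. There the median ratio of second to first TPM was 1.60 over the 45 members at 5 TPM or more, against 1.57 over nuclear protein-coding genes, whose share of all TPM was 46.6% and 44.4% in the first table and 75.6% and 75.0% in the second. Rab3a was first in both, and Rab6a moved to the second place with 413 and 417 TPM, ahead of Rab7 (403 and 399 TPM) and Rab6b (371 and 365 TPM). By complete coding transcripts alone, both tables gave place 2 to Rab6b, 3 to Rab6a and 4 to Rab7. In the second table these sums were 371 and 365 TPM for Rab6b, 252 and 268 TPM for Rab6a, and 214 and 218 TPM for Rab7. Rab7 had the largest ratio, 2.77, and Rab43 the smallest, 1.03, of the 45.

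Reads of some members could be shared with neighbours or copies. Another annotated gene overlaps 32 of the 59 members, on the same strand for 17, and how strand was used in counting was not given in the sources used here. Rab43 shares 90.3% of its 100-base words with Gm45140, which had 1.11 TPM in replicate 1 and 0.23 TPM in replicate 2. Rab4b shares 76.5% with Gm21983, which was listed at 0, and Rab7 10.97% with Rab7-ps1. The antisense gene Rab10os, opposite Rab10, had 22.7 and 18.1 TPM, and Traf7, which overlaps Rab26 on the same strand, 43.5 and 27.6 TPM. Prelid1, opposite Rab24, had 74.7 and 78.4 TPM, and Tox4, opposite Rab2b, 25.7 and 28.3 TPM, both above the Rab gene they overlap. The values of the members named here, and of others with an overlap, carry this uncertainty.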

How the data were processed

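Total RNA of 2 libraries from 1 group was measured. Per the deposited file lists, the reads were processed on mm10 with the GENCODE M21 annotation. The aligner, tool versions and strand setting were not given in the sources used here. Deposited RSEM-layout tables hold expected counts, TPM, a posterior mean TPM, the bounds of its interval (a signal; its level is not stated). The deposited transcript tables also hold, as the authors' percent values, each transcript's percentage of its gene's TPM. The deposited kallisto-layout table holds estimated counts and TPM, and is called the second quantification. TPM divides by length and is scaled over all listed features.

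Expected counts were rounded. The log2 ratio of replicate 1 over replicate 2 used TMM factors (edgeR 4.0.16, R 4.3.3), 0.5 added to each count, and a 95% exact Clopper-Pearson interval of the 2 counts, for genes whose mean count was at least 10. The calculation was tested on simulated data. Coding sequences were built from the GENCODE M21 transcripts and annotation (GRCm38). Alternatives were DESeq2 1.42.0 size factors, spike-in scaling, other filters, thresholds and pseudocounts, and the second quantification. All Rab genes are accounted for; those at a mean of 1 TPM or more are given by role, with the top 3 of each regulator list, except for items that are not reported here. The genes, lists and rules were chosen with earlier results of these data known.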

Additional observations from a re-analysis of the deposited data

How the results depend on the processing

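No paired analysis was possible because the study holds 1 group. Of the alternatives run for the 8 main counts and shares, 30 stayed within the limits used, 1 SD between replicates for the share and 1.5 times for a count, and 6 did not. With n = 2, leaving out 1 replicate cannot move the share past 1 SD. Those settings of the share are among the 30, and their result was fixed in advance. Leaving out a replicate also cannot lower the number of genes detected in both. The same holds for the pairs called and for the members with 1 leading transcript in both quantifications. The Rab share of nuclear protein-coding TPM, 0.599%, was 0.649% in the second quantification and 0.556% in expected counts. The number of Rab genes higher in replicate 1, reported as 1, was 6 with spike-in scaling, 2 with TMM over nuclear protein-coding genes and 0 in the second quantification, and the number lower, reported as 22, was 3 with spike-in scaling. Spike-in scaling turned the log2 ratios of Rab6b (0.0774), Rab15 (0.0373), Rab11a (0.0176), Rab14 (0.0676) and Rab1a (0.0034) to the other side of 0, by its shift of 0.13. Rab6a over Rab6b turned to 0.18 in the second quantification, and Rab11a over Rab11b to 0.72 for complete coding transcripts of the first. Over complete coding transcripts of the second, Rab6a and Rab11a were each below their paralogue in both replicates. The cause of these turns was not tested. With either replicate left out, 49 to 51 Rab genes were detected, the share was 0.586% to 0.611%, 20 to 21 pairs were called, and 29 members had 1 leading transcript in both quantifications. The sums of complete coding transcripts, the retained-intron settings and the spike-in scaling of the regulator lists were chosen after seeing the data. The 6 members with a mean count under 10 were left out of the ratios by the filter; their intervals are wide.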
